A study of Mus musculus with 283 samples.

Results

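The entries described here are the immunoglobulin variable segments, taken by name alone: every entry of the tumour and gland expression table that begins with Ighv, Igkv or Iglv followed by a digit. There were 346 of them among 45657 entries, 183 of the heavy chain (Ighv), 160 of the kappa light chain (Igkv) and 3 of the lambda light chain (Iglv). In the GENCODE annotation of the mouse genome build GRCm38, 344 were placed once, 216 as variable genes and 128 as variable pseudogenes, and Ighv1-13 and Ighv5-8 were each placed at more than 1 position. For each library the summed signal of the segments, the number of segments above 0 and the share of the sum held by the most abundant segment are given.

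The study measured gene expression by RNA sequencing in mouse models of breast cancer that its labels class as sensitive or resistant to antibodies against the immune checkpoint receptors PD1 and CTLA4. Of 264 libraries, a pair that repeats 1 KPB25L sample was averaged, which left 254 tumours and 9 normal mammary glands. Treated mice were injected with both antibodies, the PD1 antibody at 10 mg per kg and the CTLA4 antibody at 125 ug, and tumours were taken at 3 days, at 7 days or at end stage. Per the labels, tumours grew in the mammary site of hosts of the same strain, a text they repeat for every library, and no age is given.

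The sensitive models were T11-UV, T11-Apobec, KPB25L, KPB25L-UV and, untreated at 3 days only, KPB25L-Apobec. T11-UV and T11-Apobec are derivatives of T11, and the UV and Apobec lines of KPB25L are derivatives of KPB25L. The resistant models were T11 itself, KPB-1A and tumours named p53 with a number, of which p53-2225L and p53-2336R had treated groups. Labels of the exome libraries give the strain BALB/c for T11, its derivatives and 5 of the p53 tumours, and FVB for KPB25L and its derivatives. T11, KPB25L and their derivatives are lines, so mice of a group share 1 line. Models of unknown response, all untreated, were KPB-Primary, which the labels describe as K14-Cre with floxed Brca1 and p53, where Cre is driven by the keratin 14 promoter of basal epithelium, C3-TAG, PyMT, ILC-Pik3Ca/Cdh1Null, KPB-1B and 8 models with 1 library each. KPB-1A and KPB-1B are placed partly under the same K14-Cre genotype. The glands were 5 of BALB/c and 4 of FVB, and 2 of each strain are labelled as pooled mammary tissue. Their tissue field reads tumour, against their names.

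Antibody genes are assembled in developing B cells, which join 1 variable segment to a joining segment, with a diversity segment between them in the heavy chain. Recombination signals beside each segment, a heptamer and a nonamer separated by a spacer, are where the RAG recombinase cuts. A rearranged variable segment is transcribed as 1 RNA with its constant gene, such as Igkc for kappa or Ighm and Igha for the heavy chain. Plasma cells make far more of this RNA than resting B cells, and a clone of plasma cells makes 1 heavy and 1 light chain. Tissue with many B cell clones therefore shows many segments, and tissue with 1 large clone may show a few at high level. In bulk tissue, fewer such cells and less RNA per cell cannot be told apart.

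The end of the variable exon and the recombination signal that follows it are printed for 6 segments that lead the results below. Letters are those of the GRCm38 reference, a C57BL/6 genome, and the strains the labels give are BALB/c and FVB. The last 28 bases of the exon are in lower case, the heptamer and the nonamer are in capitals, and the spacer between them is in lower case.
Igkv14-111: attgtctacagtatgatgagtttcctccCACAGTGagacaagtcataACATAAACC
Igkv1-110: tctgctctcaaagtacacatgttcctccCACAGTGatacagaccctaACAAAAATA
Igkv10-96: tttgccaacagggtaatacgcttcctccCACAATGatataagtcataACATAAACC
Igkv4-59: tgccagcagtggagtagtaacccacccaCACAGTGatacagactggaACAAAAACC
Ighv2-2: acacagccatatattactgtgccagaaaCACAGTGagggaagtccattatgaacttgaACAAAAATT
Iglv1: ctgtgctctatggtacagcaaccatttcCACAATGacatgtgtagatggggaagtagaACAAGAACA

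Igkv14-111 lies at chr6:68256842-68256897 on the plus strand, and it was the most frequent top segment. Igkv1-110 at chr6:68271240-68271295 on the plus strand and Igkv10-96 at chr6:68631935-68631990 on the minus strand had the highest mean levels. Igkv4-59 at chr6:69438190-69438245 on the minus strand and Ighv2-2 at chr12:113588228-113588294 on the minus strand each led a treated end-stage tumour described below, of T11-Apobec and of T11-UV, and Iglv1 at chr16:19084978-19085044 on the minus strand rose with therapy at 7 days. All 6 are annotated as variable genes. The consensus heptamer CACAGTG was searched on the segment's own strand at the base after the annotated exon end and nowhere else, and the nonamer was compared with ACAAAAACC behind a spacer of 12 bases for kappa and 23 bases for heavy and lambda. Among all segments placed once, the exact heptamer stood at that position in 105 of 181 Ighv (58.0%), 106 of 160 Igkv (66.2%) and 0 of 3 Iglv, where Iglv1 and 1 other segment had CACAATG. A recombination signal was counted where the heptamer started with CAC and had up to 2 mismatches and the nonamer had up to 3. Segments with such a signal that were annotated as genes were above 0 in some library in 143 of 145 cases. Genes without such a signal did so in 69 of 71 cases. Pseudogenes did so in 25 of 35 cases with a signal and in 39 of 93 without one.

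Across the 263 samples, 277 segments were above 0 somewhere and 69 were at 0 in every library, 64 of those 69 being pseudogenes. The values are scaled by the upper quartile of each library, and 1 estimated read was worth a median of 1.01 units, with 3.45 M to 149 M estimated reads per library and a median of 51.3 M. The median library held a summed segment signal of 40.3 with 24 segments above 0, and 8 libraries had no segment above 0. The median number of segments above 3 estimated reads was only 3, so numbers above 0 include many segments at very few reads. A few libraries stand apart from the rest. Among the 27 KPB25L-UV libraries 6 carried transcripts that mark T11, against their labels, and 4 mouse numbers occur in the labels of both treated T11-UV at 7 days and treated KPB25L-UV at end stage.

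Only 85 libraries, 76 of them tumours, had at least 100 estimated reads on the segments, so counting alone limits most of the shares below. In those 85 libraries the heavy chain segments held a median of 25.3% of the sum, and lambda held a median of 3.66% of the light chain signal. Pseudogenes held a median of 2.13% and at most 11.7%. The 6 cultured tumour lines had 0 or 1 segment above 0 and a summed signal of at most 0.418, in a table scaled separately.

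The segments with the highest mean levels were Igkv1-110, Igkv10-96, Iglv1, Igkv1-117 and Igkv14-111, above 0 in 171, 158, 160, 143 and 140 samples. Igkv1-135 followed, in 130 samples. Among heavy chain segments Ighv2-2, Ighv5-17, Ighv9-3, Ighv1-9 and Ighv1-64 led, above 0 in 97, 93, 88, 79 and 83 samples. Iglv3 and Iglv2, the other lambda segments, were above 0 in 93 and 79 samples. Stretches of 50 bases, the length of a read end, were compared between segments: 50.9% of those of Igkv1-110 and 55.4% of those of Ighv2-2 also occurred in another segment, but none of those of Igkv14-111. Over all placed segments, 91 shared no stretch and 32 shared at least 50% of theirs, so levels of single close relatives are uncertain. Iglv1 also overlaps 2010309G21Rik, and whether the counting used strand is not given in the sources used here.

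Summed signal spanned the whole range of the series between models. The ILC-Pik3Ca/Cdh1Null tumours were the highest, with a lowest value of 3731, a median of 15924 and a highest of 219092 over 10 tumours. BALB/c glands followed with values of 58724, 8307, 5653, 13058 and 8083, and FVB glands with 612.5, 6482, 1768 and 6898. The ranges of ILC tumours and glands overlap, while all 10 ILC tumours lie above all 24 KPB-Primary tumours, which ran from 4.00 to 3707 around a median of 226. PyMT had 99.9, 510, 176, 137 and 301. C3-TAG had a median of 108 over 11 tumours, of which 10 lay at or below 138 and 1 at 12466. Among the sensitive and resistant models with at least 4 tumours and a segment above 0, the medians fell in the order KPB25L-Apobec 131, T11-Apobec 72.5, KPB25L-UV 65.0, KPB25L 33.8, T11 28.7, T11-UV 24.6, p53-2336R 18.96, another p53 model 12.4, p53-2224L 10.3, KPB-1A 7.03 and p53-2225L 3.35. KPB25L-Apobec had 5 tumours, from 9.20 to 2004, and the ranges of neighbours in this order overlap. The medians pool the times and arms each model had, whereas all KPB25L-Apobec tumours were untreated at 3 days. Among untreated 3-day tumours of the sensitive models, medians without pseudogenes were 232.5 in T11-Apobec, 129.6 in KPB25L-UV and 128.2 in KPB25L-Apobec. They were 68.2 in KPB25L and 20.9 in T11-UV. The 4 tumours of p53-2153F had no segment above 0, with 3.45 M to 30.6 M estimated reads each and Igkc, the kappa constant gene, between 68.7 and 98.05.

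**Figure D1:**
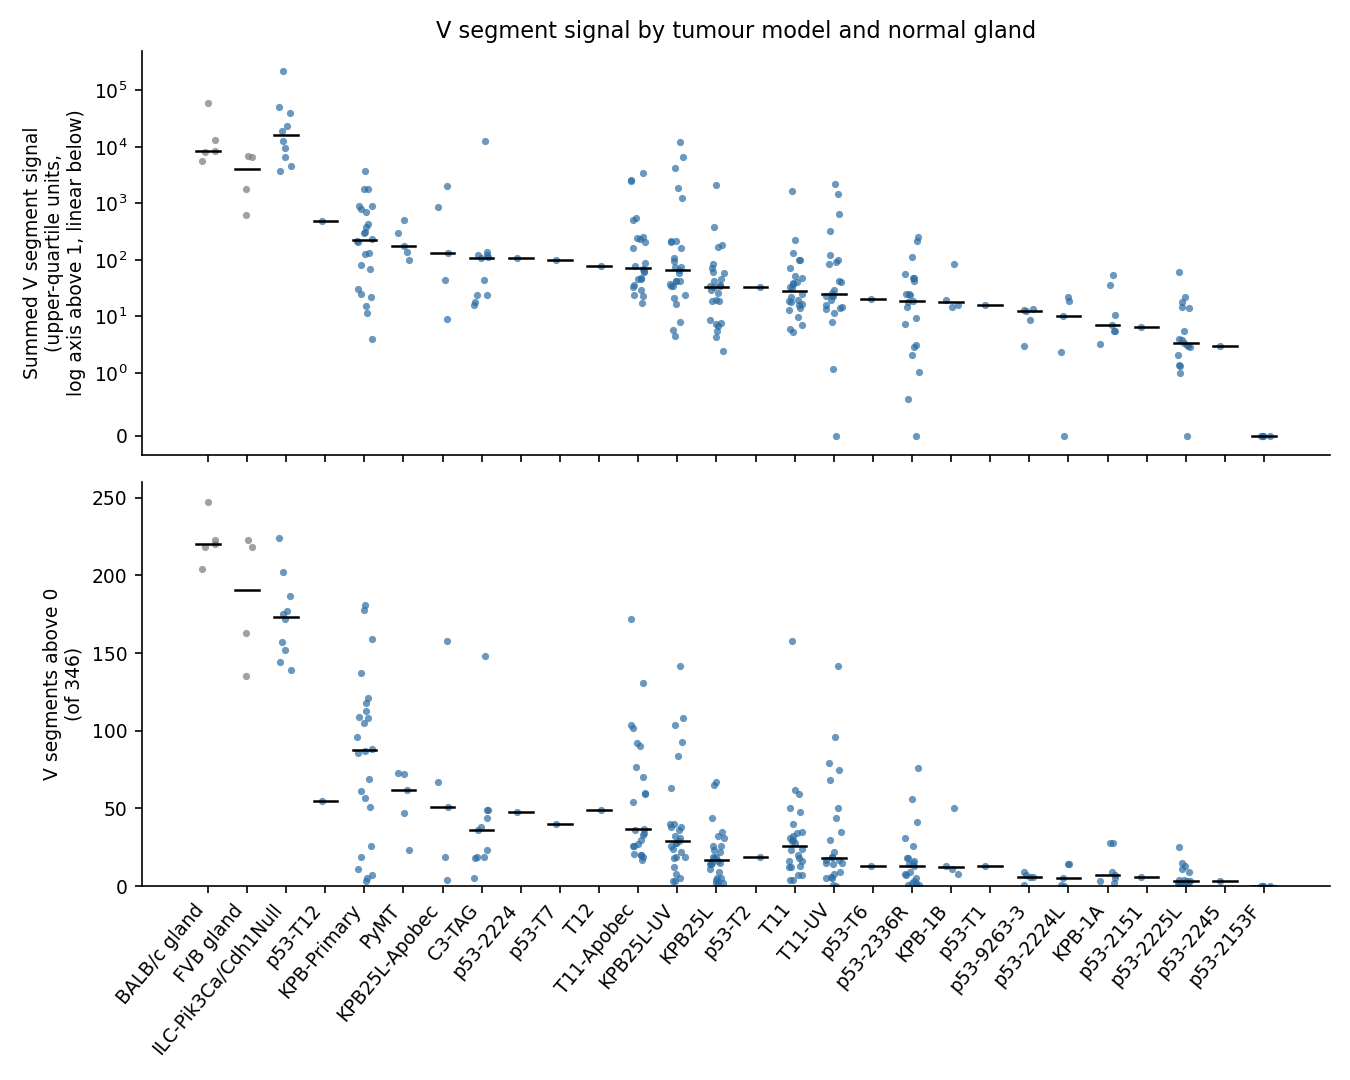
Summed signal of the variable segments (upper panel, upper-quartile units, log axis above 1 and linear below) and number of segments above 0 (lower panel) in each of 263 samples by model. Points are samples, grey for normal glands and blue for tumours, and bars are medians. Glands and ILC-Pik3Ca/Cdh1Null stand highest in both panels, and p53-2153F is at 0.

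Glands held many segments, each at a low share. BALB/c glands had 204 to 247 segments above 0 and FVB glands 135 to 223, against a median of 173.5 in ILC tumours, 87.5 in KPB-Primary, 62 in PyMT and 36 in C3-TAG. The top segment held 3.24 to 7.27% of the sum in the 9 glands and 6.79 to 22.6% in the 10 ILC tumours, so the ranges overlap between 6.79 and 7.27%. Inverse Simpson numbers, which count segments as if they were equally abundant, were 46.4 to 74.6 in the glands and 9.01 to 43.1 in the ILC tumours, and these ranges do not overlap. ILC replicate 4, with the highest sum of all libraries, was led by Igkv3-4 at 22.6%, and ILC replicate 1 by Iglv2 at 21.5%. The light chain of that second tumour was 44.1% lambda, the highest share among the libraries with at least 100 segment reads.

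B cell and plasma cell genes differed between the same tissues. The sum of 11 B cell genes was 34471 to 274450 in BALB/c glands and 11400 to 44809 in FVB glands, against 1681 to 37370 in ILC tumours and 105.5 to 428 in PyMT. Ms4a1, which encodes CD20 of B cells, was 2544 to 36624 and 440.4 to 5775 in the glands, with medians of 103 in ILC and 1.63 in PyMT. Jchain, which joins IgA and IgM subunits and marks plasma cells, ran from 1293 to 62484 around a median of 4726 in ILC tumours, from 352 to 26431 around 1994 in BALB/c glands, which overlap with ILC, and from 91.7 to 397 in FVB glands, which do not. Igha, the IgA constant gene, was 2390 to 106812 in ILC tumours, above all BALB/c glands at 39.9 to 627 and all FVB glands at 143 to 880. Whether cell makeup accounts for the numbers of segments was not tested. The summed level of 9 genes of lymphoid tissue was 56626 to 237886 and 5757 to 78583 in the 2 groups of glands, and 2399 to 15370 in ILC tumours. In PyMT it ran from 62.3 to 369386 around a median of 321, so that 1 PyMT tumour lay above every gland. The 9 genes include Glycam1, and the part of each gene in that sum was not looked at. The sum of 5 mammary secretory genes (Csn2, Csn3, Wap, Pigr and Ccl28) was 475194 to 2234343 in PyMT. Whether the high PyMT value reflects lymphoid tissue was not tested.

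In the fit over 63 samples of 7 groups, 72 segments passed the filter on low values. Iglv3, Igkv17-121 and Igkv3-7 showed the largest decreases from glands to the average of KPB-Primary, C3-TAG, PyMT and ILC, with differences of -4.74 ± 0.55, -4.58 ± 0.51 and -4.55 ± 0.54 (log2 of signal + 1, SE). In this comparison 59.1% of the 20872 genes tested were called by limma at an adjusted p of 0.05, and 70 of the 72 segments were called, all lower in tumours. A segment could pass the filter through the glands alone, so this count carries no weight of its own. All 11 B cell genes, 9 of 9 lymphoid tissue genes, 5 of 5 T cell genes and 8 of 11 constant genes tested also fell, while of 10 plasma cell genes 4 rose and 5 fell and of 8 follicle genes 2 rose and 5 fell. Igha differed by 1.41 (adjusted p = 0.145).

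Between the gland strains, Iglv1 was higher in BALB/c by 4.35 ± 1.08 (adjusted p = 0.0127, limma), Igkv14-126 by 4.23 ± 1.15 (adjusted p = 0.0298) and Ighv3-6 by 3.14 ± 0.89 (adjusted p = 0.0414). These were 3 of 72 segments, beside 2.05% of all genes tested, and 28 of 72 had an unadjusted p under 0.05 by limma. The median segment difference was 2.01, against 0.12 over all genes. B cell genes had a median difference of 1.81 and constant genes one of 1.99, so the shift was not limited to the segments called. Lambda held 6.48 to 8.25% of the light chain signal in the 5 BALB/c glands and 2.24 to 4.17% in the 4 FVB glands, without overlap. The calls rest on single glands: none of the 3 passed without BALB/c replicate 1, and the count was 0 without FVB replicate 1 or FVB replicate 3 and 1 without BALB/c replicate 4. Igkv14-126 and Ighv3-6 each lost the call without any 1 of 6 glands, among them BALB/c replicate 5 for both (adjusted p = 0.0530 and 0.0589), BALB/c replicate 2 for Igkv14-126 (0.0662) and FVB replicate 2 for Ighv3-6 (0.0622). No segment was above 0 in at least 50% of the libraries of 1 host strain and at 0 in all of the other.

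Kappa segments and the kappa constant gene belong to the same RNA, so their ratio was compared across libraries. In the 10 ILC tumours the summed Igkv signal was 0.375 to 0.499 times that of Igkc, although Igkc itself ran from 4148 to 360065. The 9 glands had ratios of 0.341 to 0.721, and C3-TAG tumours with Igkc above 100 had 0.392 to 0.622. In the sensitive and resistant models the ratio was lower and more scattered: over 91 tumours with Igkc above 100 it ran from 0 to 0.52 with a median of 0.147, and 79 lay under 0.3. KPB25L treated at 7 days, replicate 1, had Igkc at 2849 and a summed Igkv of 31.2, a ratio of 0.011. KPB25L-UV untreated at 3 days, replicate 4, had Igkc at 53159 and a summed Igkv of 3034, a ratio of 0.0571. No flow cell is given for the ILC tumours, and the source of the lower ratio was not tested.

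**Figure D2:**
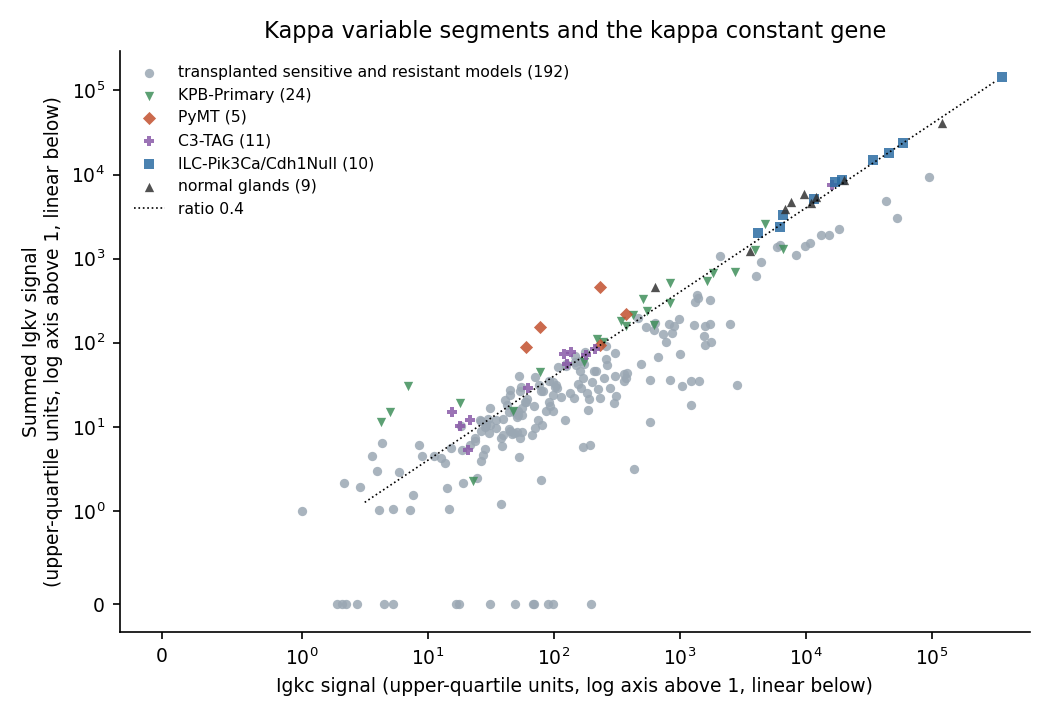
Summed Igkv signal against Igkc signal in single samples (both in upper-quartile units, log axes above 1 and linear below), by set of models, with a dotted line at a ratio of 0.4. ILC tumours and glands lie along the line over the whole range, and many sensitive and resistant tumours lie below it.

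Over the 254 tumours, the log2 summed segment signal followed Igkc (Pearson r = 0.889), Jchain (0.888), Ighg2b (0.875), Ighg2c (0.862) and Igha (0.774) most closely among 36089 genes that are not segments. All but Jchain are constant genes of antibody chains. These correlations run over tumours of many models that share their libraries and depth, and they are given as a description.

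At 7 days the summed signal was higher in every treated than in every untreated tumour in 2 of the 4 sensitive models compared, T11-Apobec and T11-UV. In T11-Apobec the summed signal was 46.7, 89.8, 258 and 60.4 in the 4 treated tumours and 29.7, 24.2, 17.6 and 35.7 in the 4 untreated ones. All treated tumours lie above all untreated ones, and the medians differ 2.79-fold. In T11-UV it was 121, 98.7, 23.3 and 83.0 with therapy and 14.2, 22.9, 19.5 and 14.9 without, again without overlap though the closest values are 23.3 and 22.9, and the medians differ 5.29-fold. Treated and untreated T11-UV tumours were on different flow cells, so therapy and flow cell cannot be told apart there, whereas all T11-Apobec tumours at 7 days were on 1 flow cell.

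KPB25L-UV had values of 165, 12190, 214, 6557, 59.6 and 1246 with therapy and 74.6, 1856, 35.1 and 24.2 without. The groups overlap, 3 of 6 treated tumours lie above 1000, and 1 of 4 untreated ones does too. In KPB25L the sums were 41.6, 84.1, 26.1 and 59.7 with therapy and 7.75, 45.9 and 34.5 without, which overlap. In T11, the resistant parent, they were 12.8, 19.5, 71.6 and 38.5 with therapy and 33.2, 14.2, 130.5 and 16.4 without, with a ratio of medians of 1.17 that ran from 0.785 to 1.77 when each tumour was left out in turn. The corresponding ratio in KPB25L-UV, 13.3, ran from 3.90 to 22.7.

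The numbers of segments above 0 at 7 days overlapped between arms in all 5 models. T11-Apobec had 20, 60, 70 and 37 with therapy and 30, 21, 17 and 26 without, so the groups overlap through treated replicate 1, the library with the fewest reads of the 8 (36.4 M reads against up to 67.2 M reads). In T11-UV the numbers were 30, 50, 14 and 79 against 9, 17, 6 and 15. The share of the top segment overlapped in all 5 models as well. The median top share was 11.2% with therapy and 17.9% without in T11-UV, 13.3% and 10.5% in T11-Apobec, 19.3% and 43.7% in KPB25L, 13.5% and 14.6% in KPB25L-UV, and 11% and 11.5% in T11. KPB25L treated replicate 2 had the highest top share of that time point, with Igkv10-96 at 51.5% of 84.1.

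**Figure D3:**
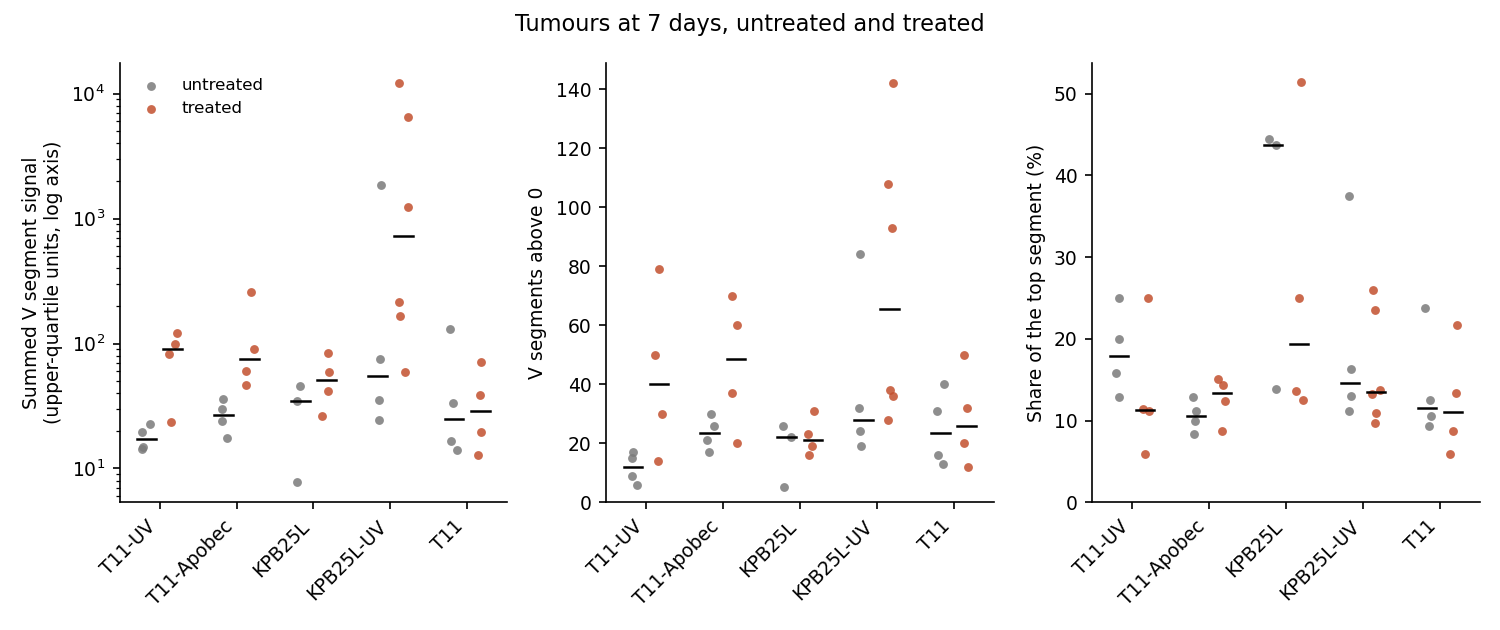
Summed signal (left, upper-quartile units, log axis), number of segments above 0 (middle) and share of the top segment in percent (right) in tumours at 7 days, untreated in grey and treated in orange, with bars at medians. The sums of treated and untreated tumours do not overlap in T11-UV and T11-Apobec, and they overlap in KPB25L, KPB25L-UV and T11; the other 2 quantities overlap in all 5 models.

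Only 4 segments passed the filter on low values in the fit of 192 tumours of sensitive and resistant models: Iglv1, Igkv1-110, Igkv1-117 and Igkv10-96. Averaged over T11-UV, T11-Apobec, KPB25L and KPB25L-UV at 7 days, Iglv1 rose by 2.12 ± 0.53 with therapy (log2, SE; limma adjusted p = 0.000742) and Igkv1-110 by 1.502 ± 0.533 (adjusted p = 0.0191). Igkv1-117 differed by 1.16 (adjusted p = 0.0629) and Igkv10-96 by 1.01 (adjusted p = 0.134). Thus 2 of 4 were called, beside 36.7% of all 20845 genes tested, and the median difference was 1.33 against -0.07 over all genes. With the flow cell as a term neither was called: Iglv1 differed by 1.86 (adjusted p = 0.0517) and Igkv1-110 by 1.26 (adjusted p = 0.212). With a pseudocount of 10 Igkv1-110 also lost its call (adjusted p = 0.0917). Without KPB25L-UV untreated replicate 2, all 4 were called.

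In single tumours, Iglv1 was 6.67, 3.87, 6.52 and 3.72 in treated T11-Apobec and 1.65, 0, 0 and 0.939 in untreated T11-Apobec. In T11-UV it was 30.3, 11.2, 2.59 and 4.86 with therapy and 0, 1.76, 1.62 and 0.782 without. The treated tumours lie above the untreated ones in both models, at levels of a few reads. In KPB25L-UV Iglv1 was 2.70, 473, 13.2, 292, 2.63 and 34.1 with therapy and 2.07, 34.7, 0.975 and 0 without, and Igkv1-110 was 4.98, 90.1, 10.1, 742, 2.63 and 2.75 against 2.07, 1.48, 0.975 and 3.16. The groups overlap for both segments. Within this model Iglv1 rose by 3.03 ± 0.96 (limma adjusted p = 0.0174) and Igkv1-110 by 2.82 ± 0.97 (adjusted p = 0.0294), 2 of 4 segments beside 19.4% of genes.

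The KPB25L-UV calls rest on a few libraries. Without treated replicate 2 the adjusted p was 0.114 for Iglv1 and 0.104 for Igkv1-110, without treated replicate 4 it was 0.1 and 0.217, and without untreated replicate 3 it was 0.0758 and 0.088. Without untreated replicate 4 Iglv1 missed the threshold (adjusted p = 0.107), and without untreated replicate 2 Igkv1-110 did (0.0554). Without the 6 KPB25L-UV libraries that carried transcripts of T11, Iglv1 had an adjusted p of 0.0631. Of these 6, the 4 taken at 7 days had sums of 165 and 59.6 with therapy and of 35.1 and 24.2 without.

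No segment was called in T11-UV (beside 7.46% of genes), T11-Apobec (29.4%), KPB25L (0%) or T11 (0%) at 7 days. At an unadjusted p under 0.05, the numbers were 1, 0, 0 and 0 of 4. The therapy effect in the sensitive models minus that in T11 was 1.66 ± 1.18 for Iglv1 (limma adjusted p = 0.68) and 1.19 ± 1.19 for Igkv1-110 (0.779), with no segment called beside 0.0048% of genes and 0 at an unadjusted p under 0.05, so a difference between sensitive models and T11 was not shown. Untreated T11-UV and T11-Apobec gave no called segment against untreated T11 at 7 days (5.66% of genes called, 0 segments at an unadjusted p under 0.05).

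Genes of antibody-making cells rose at 7 days in the sensitive models as well. Igkc rose by 2.71 ± 0.70 (limma adjusted p = 0.00126), Jchain by 2.70 ± 0.57 (8.66e-05), Mzb1, a chaperone of antibody secretion, by 2.27 ± 0.51 (0.000245), Igha by 2.43 ± 0.49 (4.05e-05) and Ighg1, the IgG1 constant gene, by 3.10 ± 0.90 (0.00398). Ms4a1 rose by 1.58 ± 0.57 (0.0227) and Pou2af1, a coactivator of octamer factors in B cells, by 1.27 ± 0.51 (0.0403). Ighm differed by 0.30 (adjusted p = 0.541) and Cr2, a complement receptor of follicles, by 0.28 (0.731). By list, 8 of 11 constant genes, 5 of 10 plasma cell genes, 7 of 11 B cell genes, 7 of 9 lymphoid tissue genes, 5 of 5 T cell genes and 1 of 7 follicle genes tested rose, and none of these lists had a gene that fell. Over all 20845 genes tested 3233 rose and 4426 fell. Among 3 octamer factor genes 1 rose and 1 fell, among 2 B cell precursor genes 1 rose, and none of 4 mammary secretory genes was called. The summed T cell genes were 1136 to 18488 in treated and 257 to 4037 in untreated tumours, and the part of other lymphocytes in the result was not tested.

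Igkc and its segments did not move by the same factor. In T11-Apobec at 7 days the ratio of Igkv to Igkc was 0.0285, 0.206, 0.19 and 0.118 with therapy and 0.423, 0.258, 0.278 and 0.328 without, so every treated tumour lies below every untreated one on the same flow cell, though Igkc was only 35.1 to 60.1 in the untreated ones. The medians of Igkc differ 14.4-fold there, and those of the sum over all segments, heavy chain and lambda included, 2.79-fold. KPB25L at 3 days also had treated ratios wholly below untreated ones, at 0.0746 to 0.172 against 0.222 to 0.365. So did KPB25L-UV at end stage, at 0.0333 to 0.152 against 0.175 to 0.5. Treated and untreated KPB25L-UV tumours at end stage were on different flow cells, so therapy and flow cell cannot be told apart there. The other 16 pairs of treated and untreated groups overlapped in this ratio.

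At 3 days the direction was the other way for Igkv1-110. It was lower in treated tumours of the sensitive models by 1.76 ± 0.54 on the log2 scale, a difference of -1.76 (limma adjusted p = 0.0243), and was called as 1 of 4 segments beside 13.8% of genes. In T11-UV it was 0 in all 3 treated tumours and 1.26, 6.68, 1.34 and 2.41 in the untreated ones, without overlap. Summed signal without pseudogenes was only 0 to 23.3 in these treated tumours and 11.3 to 41.0 in the untreated ones. The values of 0 are therefore limited by counting. In KPB25L it was 0, 9.02, 8.97, 0 and 0 with therapy and 72.1, 5.51, 0, 6.98 and 8.17 without, which overlap. The call was lost without 1 of 5 libraries, namely T11-Apobec untreated replicate 4, KPB25L-UV untreated replicate 4, KPB25L-UV treated replicate 1, T11-UV treated replicate 1 or T11-UV treated replicate 3, with adjusted p-values of 0.0562 to 0.0814, and with the flow cell as a term (0.0753), where the difference was -1.81. No segment was called in the resistant models at 3 days (0% of genes called; 0 segments at an unadjusted p under 0.05).

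In the fit of 192 tumours the effects of therapy at the 2 times differed for 2 segments, though not under every setting. The effect at 7 days minus that at 3 days, averaged over the sensitive models, was 3.26 ± 0.76 for Igkv1-110 (limma adjusted p = 0.0165) and 2.98 ± 0.75 for Iglv1 (adjusted p = 0.0314), 2 of 4 segments beside 0.533% of genes. With a pseudocount of 10 the differences were 1.46 and 1.39 and neither was called (adjusted p = 0.0643 and 0.0514). When only the compared groups were fitted neither was called (0.109 and 0.183), although the differences were the same and only the estimate of the spread changed. Iglv1 also lost the call with the flow cell as a term, at a difference of 2.55 (0.0955), and without any 1 of 10 libraries (0.0514 to 0.0661). These were replicate 1 of untreated and of treated KPB25L at 3 and at 7 days, replicate 1 of treated T11-UV at both times, replicate 4 of untreated T11-Apobec at 3 days, replicate 4 of untreated KPB25L-UV at both times and replicate 2 of treated KPB25L-UV at 7 days. Among treated tumours Iglv1 was higher at 7 than at 3 days by 1.78 ± 0.53 (adjusted p = 0.0233), 1 of 4 beside 6.62% of genes, a call lost without T11-UV treated replicate 1 of either time (0.0525 and 0.0535) and with the flow cell as a term, where the difference was larger, 3.14 (0.146). Among untreated tumours Igkv1-110 differed by -2.04 (adjusted p = 0.0584), with no segment called beside 0.173% of genes and 3 of 4 at an unadjusted p under 0.05.

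At end stage, large sums appeared in single tumours of both arms. T11-Apobec had a median of 1520 with therapy, from 23 to 3424, and of 120 without, from 48.4 to 554. T11-UV had 42.7 to 2220 around a median of 323 with therapy and 1.19 to 1485 around 20.8 without. In both models the treated and untreated end-stage tumours were on different flow cells, so therapy and flow cell cannot be told apart there. KPB25L had the lowest medians of these sensitive models, 6.84 with therapy, from 2.45 to 18.5, and 7.99 without, from 4.25 to 29.96. Treated and untreated ranges overlapped in all 7 models compared at 3 days and in all 7 at end stage. No segment was called at end stage in sensitive models (0.0288% of genes called, 1 segment at an unadjusted p under 0.05) or resistant models (0% of genes, 0 segments). Between untreated KPB25L and T11 at 3 days no segment was called either, beside 32.6% of genes and 0 at an unadjusted p under 0.05.

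Dominance by 1 segment has to be read against depth. The top share was 100% in 8 tumours, each with a single segment above 0 and 1 estimated read, or 4 in 1 of them: Ighv14-1, Igkv1-88, Igkv17-127, Igkv9-124, Iglv2, Iglv3 and, in 2 tumours, Ighv2-5. In the 170 libraries with under 100 segment reads the median top share was 19.1%, and 30 exceeded 40%. In the 85 deeper libraries the median was 11.96%, from 3.24 to 64.8%, 23 exceeded 20% and 4 exceeded 40%. The top segment of those 85 was a kappa segment in 75, a lambda segment in 7 and a heavy chain segment in 3.

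The 4 deep libraries above 40% were 3 PyMT tumours led by Igkv14-111 and T11-Apobec treated at end stage, replicate 2, in which Igkv4-59 was 1228 of 2532 (48.5%). That T11-Apobec tumour had Igkc at 15407 and Jchain at 471. Others led by 1 segment were T11-Apobec untreated at end stage, replicate 1, with Igkv12-46 at 39.6%, KPB25L untreated at 3 days, replicate 1, with Igkv19-93 at 29.4% of 2140, and T11-UV treated at end stage, replicate 3, with Ighv2-2 at 22.6% of 2220. By contrast T11 untreated at end stage, replicate 5, and T11-UV untreated at end stage, replicate 2, had sums of 1634 and 1485 over 158 and 142 segments.

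**Figure D4:**
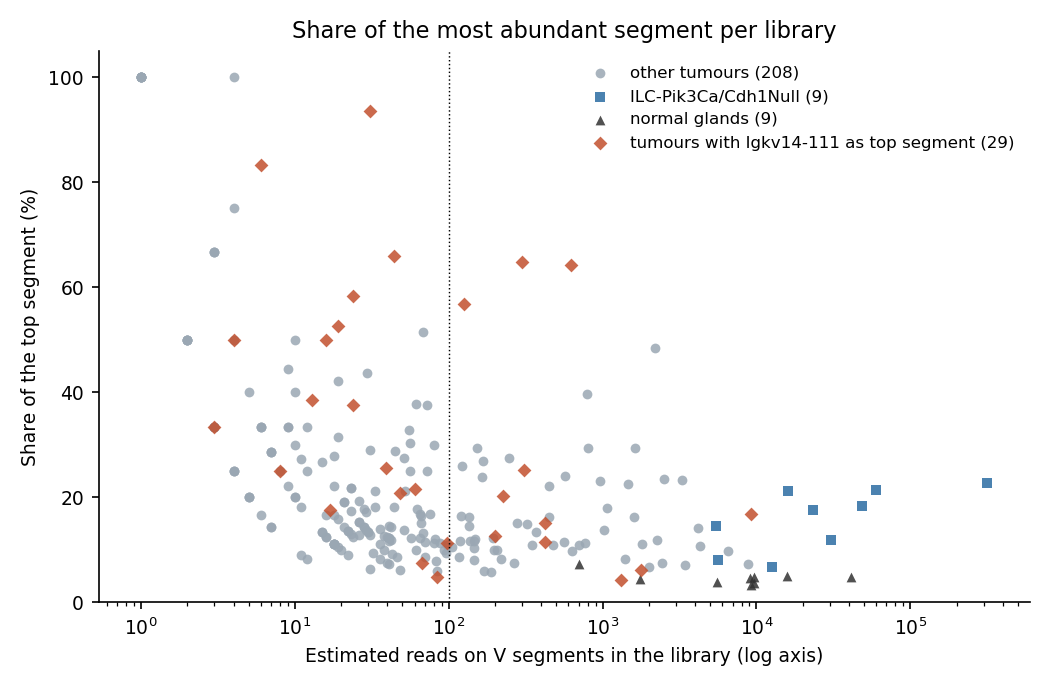
Share of the most abundant segment in percent against the estimated reads on variable segments (log axis) in the 255 libraries with a segment above 0, with a dotted line at 100 reads. Shares of 100% lie at 1 to 4 reads, and KPB-Primary replicate 13 reaches 93.55% at 31 reads. To the right of the line the highest shares are 3 PyMT tumours led by Igkv14-111, at 56.8 to 64.8%.

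Igkv14-111 was high in some tumours with little Igkc. It was the top segment in 29 libraries, more than any other segment, and all 29 were tumours: 10 KPB-Primary, 6 KPB-1A or KPB-1B, all 5 PyMT and 8 others. In PyMT it was 56.7, 327, 114, 17.2 and 61.3 beside Igkc at 59.9, 235, 78.1, 231 and 376. In 3 of these 5 tumours the single segment was thus near or above the constant gene it would be joined to. The ratio of all Igkv to Igkc was 1.47, 1.96, 1.99, 0.404 and 0.589 in the 5 tumours, and without Igkv14-111 it was 0.52, 0.566, 0.53, 0.329 and 0.426, beside 0.341 to 0.721 in the glands.

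The same segment was present where Igkc was nearly absent. Of 4 KPB-Primary tumours with Igkc below 20, all had Igkv14-111 as top segment, at 5.66 to 20.2. In KPB-Primary replicate 13 it was 14.45 of a sum of 15.45, a share of 93.5%, with Igkc at 4.98 and Igha at 0.498. Of 6 KPB-1A and KPB-1B tumours with Igkc below 20, 5 had it, and KPB-1A at end stage, replicate 4, reached 83.3% on 6 estimated reads. It was at 0 in all 5 tumours of KPB25L and its derivatives and all 3 of T11 and its derivatives with so little Igkc, above 0 in 2 of 21 such p53 tumours, and at 0 in all 6 cultured lines. In tissue with much Igkc it was present as well, at 10.5 to 1264 in glands and 70.6 to 1172 in ILC tumours. Its level was described after the values were seen, no test was made, and the cells it came from were not tested.

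**Figure D5:**
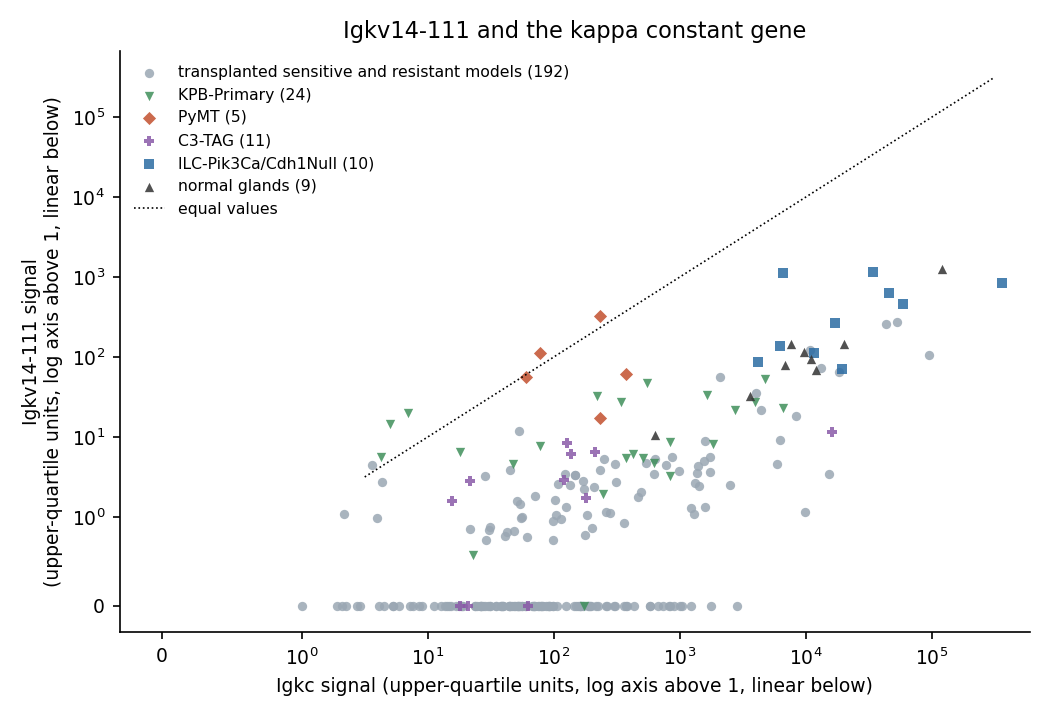
Igkv14-111 signal against Igkc signal in single samples (upper-quartile units, log axes above 1 and linear below), with a dotted line at equal values. 2 of 5 PyMT tumours, 3 KPB-Primary tumours with Igkc below 10 and 1 grey point (KPB-1A) lie above the line, and 1 more PyMT tumour lies just below it; KPB-1B is not plotted.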

How the data were processed

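RNA sequencing libraries (TruSeq mRNA, paired 50-base reads) were deposited as 1 table of upper-quartile normalized linear signal per gene, per the file headers and the labels, and the cultured lines as a second table scaled separately. STAR, Salmon, SAMtools, Picard and the build mm10 are named in the submitters' processing notes, without versions. The assignment of reads shared by near-identical segments is not stated. The authors' signal values had an upper quartile of 2037 to 2050 over genes above 0. In the median library 70.8% of values (28.2 to 82.8%) were whole multiples of 1 estimated read (tolerance 0.01 reads), so no count test was run.

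Of 45724 entries, 39 spreadsheet dates and 28 repeated names were left out. The 1 column of row sums was not used. Exome libraries (13) were not analysed here. A repeat pair (summed signal 38.84 and 52.97) was averaged. Groups came from the labels. Genes above 0 in at least 4 fitted samples and in the upper 66.7% by mean were tested on log2(signal + 1) with limma 3.58.1 (R 4.3.3) as a means model with trend, Benjamini-Hochberg adjusted over all genes tested and called at 0.05. A fold change on this scale understates the change of low genes. One fit held 192 tumours in 47 groups, the other 63 samples in 7 groups. On data simulated for the therapy comparison at 7 days (23192 genes), 79 of 100 changes of 1 on the log2 scale and 96 of 100 of 2 were called, with 8 false calls. The changed genes were drawn only from those above a set mean signal, with normal noise. These rates therefore need not hold for segments at a few reads. Not every label names an animal, so p-values measure the spread between these samples, which may in part be technical.

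Segments were described by name under these rules: the 5 Ighv, 5 Igkv and all Iglv with the highest mean, up to 3 called per direction and comparison, the top segments of the 10 largest top shares, and up to 5 that separate host strains. Other segments named as leaders of single libraries, such as Igkv4-59, Igkv12-46 and Igkv19-93, were chosen after their values were seen. The members and lists were chosen with earlier results of these data known. Summed signal, segments above 0 and top share were given no test. Leaving out libraries under 100 segment reads, or Igkv14-111, was chosen after seeing the data. 1 gene of the B cell list is not reported here. Python 3.11.15, pandas 2.3.3, numpy 2.4.6 and matplotlib 3.10.9 were used.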

Additional observations from a re-analysis of the deposited data

Results flagged for a closer look

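In groups of 4 to 10 libraries, 8 values lay apart from their group by Dixon's criterion among 122 checked, where chance gives about 1 in 20. T11 untreated at end stage, replicate 5, had a summed signal of 1634 against 6.05 to 24.98 in the other 4 tumours, and 158 segments above 0 against 4 to 24. T11-UV untreated at end stage, replicate 2, had 142 segments above 0 against 1 to 19. KPB-1B at end stage, replicate 1, had 50 segments above 0 against 8 to 13.

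The other 4 were shares of the top segment. T11-UV untreated at end stage, replicate 4, was at 100% against 8.36 to 17.9%, and p53-2336R untreated at end stage, replicate 2, at 100% against 10 to 50%, each on 1 estimated read. T11 treated at end stage, replicate 2, was at 33.3% against 7.32 to 11.9%. T11-Apobec untreated at 3 days, replicate 1, was at 16.5% against 7.53 to 8.22%. Both this library and the T11 one had under 100 segment reads. The other T11-Apobec tumours of that group had 219, 267 and 2436.

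The therapy effect in the sensitive models differed between 7 and 3 days by 3.257 for Igkv1-110 on the log2 scale (limma adjusted p = 0.0165). For Iglv1 it differed by 2.975 (limma adjusted p = 0.0314). With a pseudocount of 10 neither was called (limma adjusted p = 0.0643 and 0.0514). Nor was either called when only the compared groups were fitted (0.109 and 0.183).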

How the results depend on the processing

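Apart from leaving out a library, 76 values answering a comparison stayed within 1.5 times or the spread of libraries under another setting, 21 did not, and no called value changed sign. The filter on low values mattered most, since only 4 segments passed it in the larger fit. With no filter beyond a value above 0 in 1 sample, 241 segments were tested in the larger fit. For therapy in sensitive models at 7 days 16 were called, 15 of them higher (6.64% beside 21% of genes). At 3 days 7 were called, all lower (2.90% beside 5.58%), and in KPB25L-UV 56, of which 55 were higher (23.2% beside 11.3%). T11-Apobec gave 4, all higher (1.66% beside 16%), treated 7 minus 3 days 3, all higher (1.24% beside 3.67%), and untreated KPB25L minus T11 11, of which 9 were higher (4.56% beside 19.7%). A single segment (0.415%) was called higher in T11 (beside 0.213%) and lower for sensitive models minus T11 (0.279%), in KPB25L (0.687%) and for untreated derivatives minus T11 (3.18%). Of 273 segments, 60 were called between gland strains, 59 of them higher in BALB/c (22% beside 2.67%), and 225 between tumours and glands, all lower in tumours (82.4% beside 41.8%). With a pseudocount of 10 the numbers were 1 for sensitive models at 7 days, 0 for the effect at 7 minus 3 days and 23 between gland strains. With only the compared groups fitted, the effect at 7 minus 3 days gave 0, and other such fits that left no segment past the filter gave no value. With the flow cell as a term, sensitive models gave 0 at 7 days and 0 at 3 days, treated 7 minus 3 days 0, and the effect at 7 minus 3 days 1. Without the 6 KPB25L-UV libraries with T11 transcripts KPB25L-UV gave 1. The cause of these changes was not tested.

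Leaving out 1 library at a time gave 2 to 4 segments for sensitive models at 7 days, 0 to 1 at 3 days, 0 to 3 in KPB25L-UV, 0 to 1 for treated 7 minus 3 days, 0 to 1 for untreated 7 minus 3 days, 1 to 2 for the effect at 7 minus 3 days, 0 to 1 for untreated KPB25L minus T11 (1 without KPB25L untreated replicate 3), 0 to 6 between gland strains (6 without BALB/c replicate 3 or FVB replicate 4) and 63 to 72 between tumours and glands. The count for untreated tumours was 1 without KPB25L-UV untreated replicate 1 or 2 at 7 days, KPB25L-UV untreated replicate 3 at 3 days or KPB25L untreated replicate 3 at 3 days. Where a group was left with few samples the spread was taken from all groups. No paired analysis was possible because replicate numbers were given in accession order and name no shared animal. Shares of the top segment in libraries under 100 segment reads are limited by counting.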
